A study of Mus musculus with 14 samples.

Results

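The nuclear genes for the subunits of respiratory complexes II to V were followed in cultured mouse epidermal cells from 2 regions of the tail. The members were all rows of the count table named as a succinate dehydrogenase subunit (Sdha to Sdhd), a Uqcr gene, Cyc1, Cycs, a Cox4 to Cox8 gene or an Atp5 gene, without 7 pseudogene symbols that carry -ps. They came to 50 of 55228 symbols: 4 genes of complex II, 9 of complex III, the cytochrome c gene Cycs, 19 genes of complex IV and 17 of complex V. A filter on low counts left 42 of them for testing among 11757 genes.

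Complexes III and IV of the respiratory chain pass electrons to oxygen and pump protons across the inner mitochondrial membrane, and cytochrome c carries electrons between them. Complex II feeds electrons in from succinate without pumping, and complex V, the ATP synthase, uses the returning protons to make ATP. All of complex II and most subunits of the others are encoded in the nucleus, while a small core of complexes III, IV and V is encoded by mitochondrial DNA. Epidermal keratinocytes draw on both glycolysis and respiration, and mitochondrial activity is known to affect their differentiation.

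All libraries came from mice of the genotype Lrig1CreER/Rosa-TdTomato with no treatment given in the labels. In these mice an inducible Cre driven from Lrig1, which marks progenitors of the upper hair follicle, switches on a fluorescent reporter, so cells of the Lrig1 lineage stay marked. Marked tail epidermal cells that carried the surface antigen Sca1 were sorted at the time labelled 8w pw1, where 8 is in weeks, and grown for 1 week in complete keratinocyte medium. Control libraries (n = 8) are from a region that the labels call non-memory, and distal libraries (n = 6) from the distal memory region, in a study of tissue memory that progenitors keep far from an injury. Small pools of cells were read with Smart-seq2 and Nextera XT. The sample descriptions divide the libraries into 4 sets of 6 and 2 control and 2 and 4 distal libraries, and no set holds both regions. The labels do not say that libraries came from separate mice or cultures, so the p-values reflect the spread among libraries alone, and part of it may be technical.

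Total counts were 4515646 to 7458872 in control and 2137934 to 4513518 in distal libraries, without overlap. For each gene, log2 CPM (counts scaled to a common library total) was taken as a deviation from its mean over the 14 libraries. These deviations were regressed on transcript GC content, with the slope expressed for 10 points of GC. It ran from -0.60 to -0.33 among the control libraries and from 0.22 to 0.91 among the distal ones. Such slopes compare libraries with each other, are not the GC slope of a library by itself, and their opposite signs are partly forced. Distal replicates 3 and 4, which were the deepest of the distal libraries, had the lowest of these slopes in their region, 0.22 and 0.34. Depth, GC slope and set moved with the region and cannot be told apart from it by design. All 12 keratinocyte markers had counts, and their summed level was 7800 to 11608 CPM in control and 11517 to 19991 CPM in distal libraries. Krt14 (mean 3989 CPM in control and 9224 CPM in distal libraries) and Krt5 (2065 and 4330 CPM) made up most of it. Trp63 (210 and 111 CPM), Itga6 (497 and 279), Ly6a (1880 and 1388) and Krt10 (22.6 and 10.1) averaged lower in distal libraries. Itgb4, Col17a1, Lrig1 and Krt79 averaged higher, and Krt1 and Krt15 were too low to test. Fibroblast markers (5 of 6 with a count, Lum at 0) summed to 0.535 to 241 CPM in control and 2.30 to 88.7 CPM in distal libraries, and striated muscle markers (3 of 8) to 1.52 to 5.91 and 1.83 to 64.7 CPM. Immune markers (3 of 6 with a count, Cd3e at 0) reached at most 0.473 CPM in control and 1.38 CPM in distal libraries. Endothelial (2 of 4, Cdh5 and Emcn at 0) and melanocyte markers (4 of 5, Dct at 0) stayed under 10 CPM in every library, at 1.89 to 9.87 and 0.237 to 5.49 CPM. In such bulk libraries fewer cells of a type and less RNA per cell cannot be told apart, and the part of other cell types in the results was not tested.

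Among the members, Atp5g1, Atp5g2 and Atp5g3 encode one and the same mature protein, subunit c of the ATP synthase ring, and they moved in opposite directions. Their last 75 codons specify 75 identical residues, while the import signals before them differ. The coding sequence of this shared part is shown to let the genes be told apart, with the first 120 bases of each taken from the GENCODE transcripts for GRCm38. Capitals mark the positions at which the 3 genes do not all carry the same base.
Atp5g1: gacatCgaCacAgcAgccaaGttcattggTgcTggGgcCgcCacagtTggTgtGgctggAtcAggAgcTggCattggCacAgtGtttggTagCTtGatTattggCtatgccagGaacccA
Atp5g2: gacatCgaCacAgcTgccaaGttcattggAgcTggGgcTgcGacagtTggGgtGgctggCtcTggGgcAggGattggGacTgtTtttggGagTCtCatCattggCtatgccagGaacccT
Atp5g3: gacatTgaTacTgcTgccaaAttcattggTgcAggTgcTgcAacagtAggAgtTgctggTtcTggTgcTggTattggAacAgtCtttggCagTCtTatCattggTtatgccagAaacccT
Over the 225 bases of the 75 codons, Atp5g1 and Atp5g3 differed at 45 positions, of which 41 were the third of a codon, Atp5g1 and Atp5g2 at 34 (32 at the third) and Atp5g2 and Atp5g3 at 48 (44 at the third). With the stop codon included, the third base was G or C in 61.8% of codons in Atp5g1 and in Atp5g2, and in 38.2% in Atp5g3.

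The genes lie on chromosome 11 (Atp5g1, GRCm38, chr11:96068852-96075670), chromosome 15 (Atp5g2, chr15:102662864-102672352) and chromosome 2 (Atp5g3, chr2:73908447-73911326). Each has its own promoter, and the 120 bases before the start are shown here from RefSeq (GRCm38.p6, all on the minus strand) beside those of Cycs, the electron carrier. Capitals mark matches to 4 motifs of known regulators of respiratory genes, searched on both strands: GCGCATGC (NRF1), AAGATGGCG (YY1), CCGGAAG (ETS factors such as GABPA) and CACGTG (E box).
Atp5g1, chr11:96075632-96075751: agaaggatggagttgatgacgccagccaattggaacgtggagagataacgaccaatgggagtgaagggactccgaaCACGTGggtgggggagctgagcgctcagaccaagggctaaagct
Atp5g2, chr15:102671048-102671167: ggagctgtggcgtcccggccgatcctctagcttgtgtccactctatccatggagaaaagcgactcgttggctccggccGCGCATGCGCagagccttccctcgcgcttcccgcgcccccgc
Atp5g3, chr2:73911327-73911446: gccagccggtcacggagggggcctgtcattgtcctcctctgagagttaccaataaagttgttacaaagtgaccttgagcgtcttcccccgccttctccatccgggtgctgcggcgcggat
Cycs, chr6:50566570-50566689: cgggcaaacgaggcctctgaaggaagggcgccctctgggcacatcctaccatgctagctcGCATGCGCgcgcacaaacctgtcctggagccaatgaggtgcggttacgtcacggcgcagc
The capitals in Atp5g2 are an overlapping pair of NRF1 matches, 1 on each strand. Windows from 250 bases before to 50 after the start were found for 37 members. The NRF1 letters were in the windows of 8 of them (21.6%, against 2.71% of 32817 RefSeq windows), namely Atp5g2, Atp5k, Atp5l, Cox6a1, Cycs, Sdhb, Uqcr11 and Uqcrc1. The ETS letters were in 13 (35.1%, against 8.86%), the YY1 letters in 2 (5.41%, against 1.40%) and the E box in 4 (10.8%, against 7.15%). The genes with an E box were Atp5f1, Atp5g1, Atp5g3 and Atp5l, and the match of Atp5g3 lies outside the bases shown. Such matches describe the letters only.

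In the comparison of regions, 21 of the 42 tested members rose and 11 fell in distal libraries, and 10 did not pass (edgeR's quasi-likelihood test, Benjamini-Hochberg adjusted over all tested genes). That is 76.2% of members called, against 48.3 percent of all tested genes, of which 24.3 percent were called higher and 24.1 percent lower. The median log2 fold change, distal minus control, was 0.36 over the members and -0.16 over all tested genes. In 16 members the lowest distal library lay above the highest control library, and in 4 the highest distal lay below the lowest control. Over all genes these shares were 12.7 percent and 5.65 percent, or 18.3 percent together. Once each library's trend with GC content and length was removed, 15 members were called higher and 6 lower, against 10.4 percent and 8.59 percent of all genes (19 percent in all). With GC content and length taken from the principal transcript instead, 15 were higher and 7 lower, against 9.94 percent and 7.93 percent (17.9 percent in all). Summing the counts per set left 20 higher and 1 lower (Uqcrb), against 18.8 percent and 11.7 percent (30.5 percent in all). Without the 6 libraries of control set 1, 20 were higher and 1 lower, against 10.1 percent and 9.47 percent (19.6 percent in all). In the 8 control and 2 distal libraries over 4000000 counts, 11 were higher and 1 lower, against 6.98 percent and 4.63 percent (11.6 percent in all). The total count as a covariate left 9 higher and 2 lower, against 5.21 percent and 2.89 percent (8.1 percent in all).

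**Figure D1:**
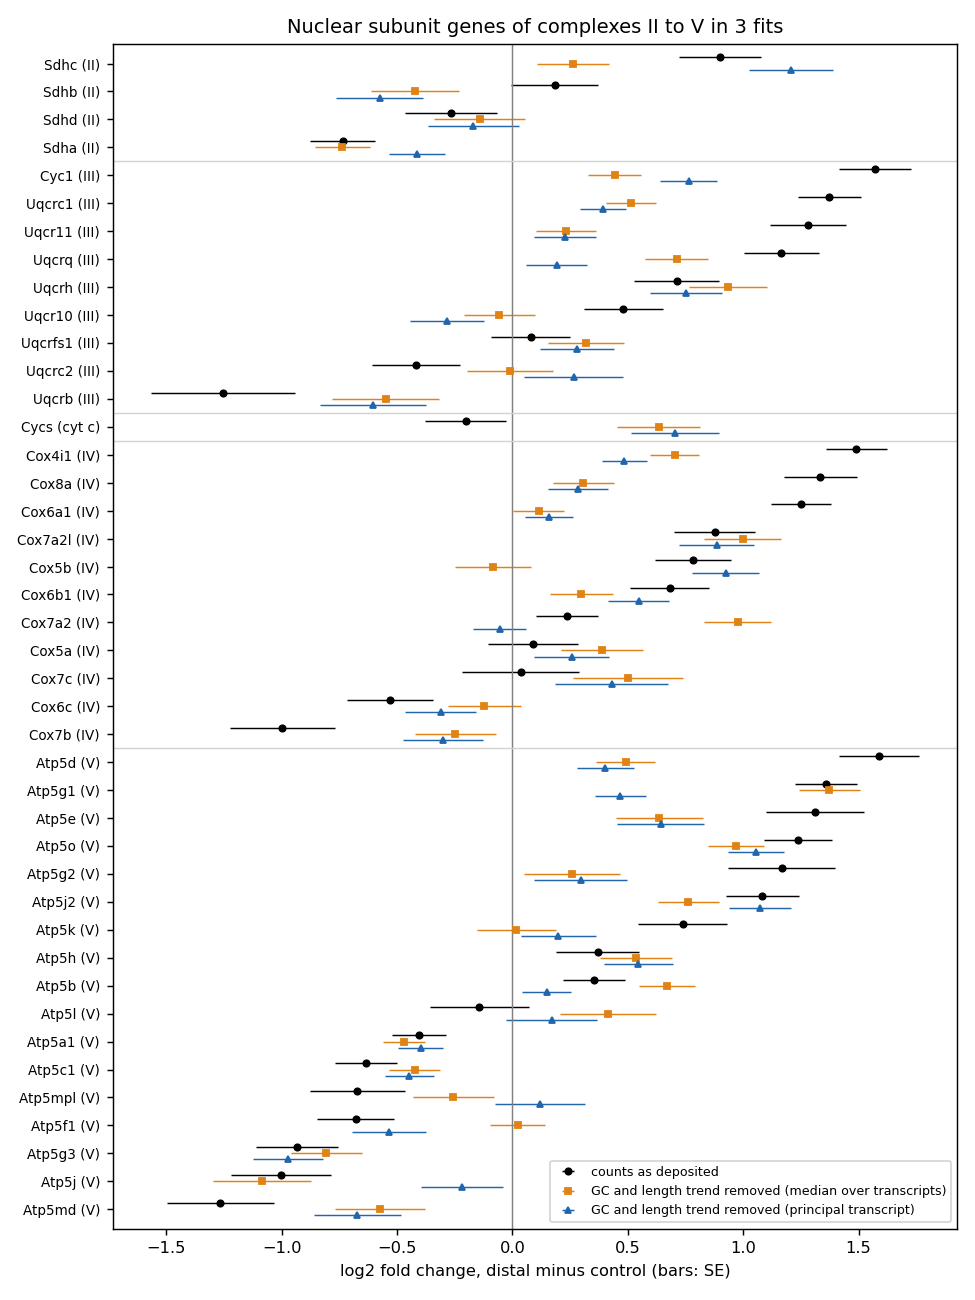
Log2 fold changes (distal minus control, x axis, bars give the SE) of the 42 tested members, ordered by complex, in 3 fits: counts as deposited, and with the GC and length trend removed in either of 2 ways. Complexes II to V each hold members on both sides of 0, and most fold changes of complexes III and IV come closer to 0 when the trend is removed.

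Within complex V, 8 of 17 members rose and 7 fell. The subunit c genes were on both sides. Atp5g1 read 51.6 to 77.1 CPM in control libraries (median 64.3) and 144 to 197 CPM in distal libraries (median 159). Atp5g2, the least abundant of the 3, read 7.22 to 16.3 CPM (median 11.4) and 21.99 to 34.3 CPM (median 24.5). For both genes the distal libraries lay above the control libraries without overlap. Atp5g3 read 702 to 1485 CPM in control libraries (median 917) and 392 to 702 CPM in distal libraries (median 475). Its groups did not overlap either, in the other direction, but its lowest control and highest distal libraries almost touched at 701.6 and 701.5 CPM. The log2 fold changes were 1.36 ± 0.14 (SE, adjusted p = 1.8e-06) for Atp5g1, 1.17 ± 0.23 (adjusted p = 0.00051) for Atp5g2 and -0.93 ± 0.18 (adjusted p = 0.00037) for Atp5g3. Opposite changes of Atp5g1 and Atp5g3 were still called after the trend was removed, at 1.37 and -0.81, and with principal transcripts at 0.47 and -0.97. Atp5g2 was at 0.26 (adjusted p = 0.43) and 0.29 (adjusted p = 0.34) in these fits. The transcripts of Atp5g1 have a median GC content of 51.0%, and its principal transcript has 56.4%. With counts summed per set Atp5g1 was called (1.56, adjusted p = 0.0023) and Atp5g3 was not (-0.67, adjusted p = 0.079), and in the deepest libraries Atp5g1 was called (1.17) and Atp5g3 was not (-0.61, adjusted p = 0.11).

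Counted together, the subunit c genes shifted their shares. Atp5g3 gave 92.4% ± 1.44 (SD, n = 8) of their counts in control and 71.5% ± 5.76 (SD, n = 6) in distal libraries, with ranges of 90.2% to 94.8% and 67.1% to 80.3%. The share of Atp5g1 was 6.46% ± 1.29 in control and 24.5% ± 4.81 in distal libraries, and that of Atp5g2 1.15% ± 0.243 and 3.99% ± 1.30. Atp5g3 thus remained the most counted of the 3 genes in all 14 libraries. The part of GC content in this shift was not tested beyond the fits above, and the shared parts of Atp5g1 and Atp5g2 carry more GC (54.4% and 55.3%) than that of Atp5g3 (45.2%). Stretches of 50 bases that also occur in another gene covered 66.0% of the Atp5g1 transcript and 100% of the Atp5g2 transcript, mostly shared with Gm10039 and Gm10175, and none of Atp5g3. The sources used here do not say how reads that match several genes were counted, so the levels of Atp5g1 and Atp5g2 are uncertain. Gm10039 itself was at 3.25 ± 1.09 CPM in control and 8.71 ± 2.001 CPM in distal libraries, and Gm10175 at 0.264 ± 0.195 and 1.16 ± 0.640 CPM.

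**Figure D2:**
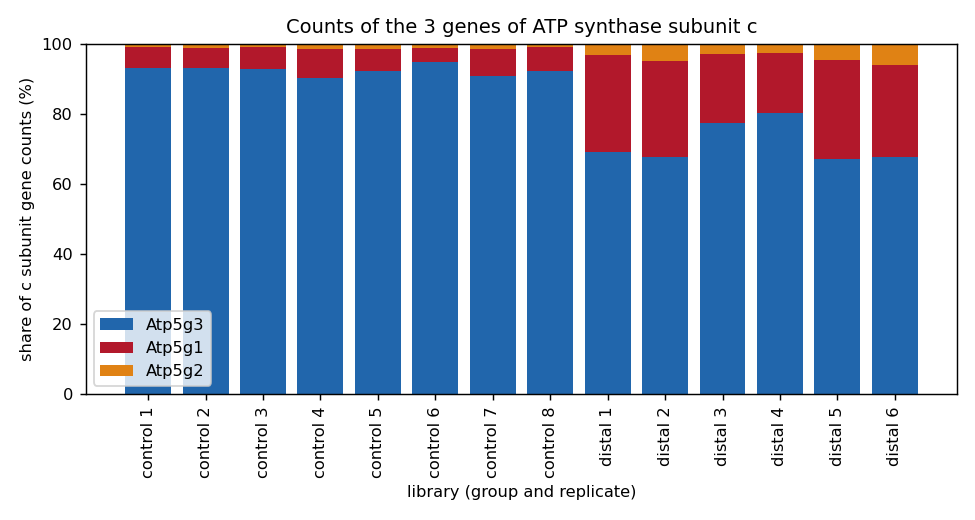
Share (%, y axis) of the counts of Atp5g1, Atp5g2 and Atp5g3 in their sum, stacked for each of the 14 libraries (x axis, group and replicate). The Atp5g3 share is 90.2% to 94.8% in the control libraries and 67.1% to 80.3% in the distal libraries, with distal replicates 3 and 4 the highest of the latter.

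Other subunits of the ATP synthase were as divided. In the catalytic head and central stalk, Atp5b (the catalytic beta subunit) read 1030 to 1540 CPM in control and 1364 to 1850 CPM in distal libraries, with an overlap, and rose by 0.35 ± 0.14 (adjusted p = 0.038). Atp5a1 (the alpha subunit) fell by 0.41 ± 0.12 (adjusted p = 0.0078), and Atp5c1 (the gamma subunit of the stalk) fell by 0.64 ± 0.13 (adjusted p = 0.00088), both with no overlap. The alpha and beta subunits occur in equal number in the enzyme, and their transcripts were called in opposite directions in this fit. With the trend removed they still were (0.67 for Atp5b and -0.47 for Atp5a1), but Atp5b was at 0.15 (adjusted p = 0.38) with principal transcripts and at -0.01 (adjusted p = 0.98) with the total count as a covariate. Atp5a1 was at -0.24 (adjusted p = 0.13) with upper-quartile scaling. Each call was lost without single libraries: Atp5b missed the threshold without control replicate 3, 7 or 8 (0.31 to 0.33, adjusted p 0.066 to 0.068), and Atp5a1 without control replicate 2 or 4 or distal replicate 2, 4, 5 or 6 (-0.32 to -0.27, adjusted p 0.056 to 0.088). Atp5d, the delta subunit of the stalk, had the highest fold change of the members, 1.59 ± 0.17 (adjusted p = 3e-06), from 51.2 to 112 CPM in control (median 75.5) to 182 to 267 CPM in distal libraries (median 234), with no overlap. Atp5e, its epsilon partner, rose by 1.31 ± 0.21 (adjusted p = 9.1e-05). Atp5d was at 0.49 and Atp5e at 0.64 with the trend removed, and both were still called.

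Of the peripheral stalk, which holds the head in place, Atp5o (the oligomycin sensitivity protein) rose by 1.24 ± 0.15 (adjusted p = 5.2e-06). It read 70.6 to 110 CPM in control (median 90.6) and 154 to 252 CPM in distal libraries (median 219). There was no overlap, and Atp5o was called higher in all of the fits with the trend removed (0.97 and 1.05), summed per set (1.45), both together (0.98, adjusted p = 0.036) and in the deepest libraries (0.90, adjusted p = 0.014). Stretches shared with other genes covered 63.0% of its transcript, mostly with Donson, whose annotated transcripts overlap it and whose level was 24.6 ± 6.13 CPM in control and 28.3 ± 12.04 CPM in distal libraries. Among the other stalk genes, Atp5f1 (subunit b) fell by 0.68 ± 0.17 (adjusted p = 0.0028) and Atp5j (coupling factor 6) fell by 1.00 ± 0.22 (adjusted p = 0.0011), and Atp5h (subunit d) was at 0.37 ± 0.18 (adjusted p = 0.098). Atp5h was called higher in both fits with the trend removed, at 0.54 (adjusted p = 0.021) and, with principal transcripts, at 0.55 (adjusted p = 0.015). Stretches shared with other genes covered 66.6% of its transcript, so its level is uncertain too. After removal of the trend Atp5f1 was at 0.02 (adjusted p = 0.92), and at -0.53 (adjusted p = 0.028) with principal transcripts. Atp5j was at -1.08 (adjusted p = 0.0017) and -0.22 (adjusted p = 0.43) in these fits. The median GC content of its annotated transcripts is 50.9% and that of its principal transcript 39.9%, and the fits also differ in the length used.

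Among the small membrane subunits of complex V, Atp5j2 (subunit f) read 29.3 to 56.5 CPM in control (median 46.2) and 77.8 to 116 CPM in distal libraries (median 91.9). The groups did not overlap, and the rise was 1.08 ± 0.16 (adjusted p = 3.1e-05). Atp5k (subunit e) rose by 0.74 ± 0.19 (adjusted p = 0.0043), while Atp5l (subunit g) was at -0.14 ± 0.21 (adjusted p = 0.59), although subunits e and g sit side by side in the enzyme dimer. That contrast did not hold with the trend removed, where Atp5k was at 0.02 (adjusted p = 0.96) and Atp5l at 0.41 (adjusted p = 0.18), nor with principal transcripts, at 0.20 (adjusted p = 0.44) and 0.17 (adjusted p = 0.61). In the deepest libraries Atp5k was at 0.38 (adjusted p = 0.41). Atp5l was at 0.03 with upper-quartile scaling, and 84.8% of its transcript is shared with other genes, so its level is uncertain. Atp5md, whose protein DAPIT also helps dimers form, had the lowest fold change of the members, -1.27 ± 0.23 (adjusted p = 0.00028). It was at -0.57 (adjusted p = 0.049) with the trend removed and at -0.67 (adjusted p = 0.018) with principal transcripts. Atp5md was not called with counts summed per set (-0.83, adjusted p = 0.073) or in the deepest libraries (-0.94, adjusted p = 0.087). Control set 2 minus control set 1 was at -1.04 ± 0.27 (adjusted p = 0.43), and 41.9% of the Atp5md transcript is shared with other genes. Atp5mpl, a small proteolipid, fell by 0.67 ± 0.21 (adjusted p = 0.012), and missed the threshold without distal replicate 5 (-0.49, adjusted p = 0.074) or 6 (-0.54, adjusted p = 0.061). It was at -0.26 (adjusted p = 0.34) with the trend removed and at 0.12 (adjusted p = 0.73) with principal transcripts. Summed over the 17 genes, complex V counted 6310 ± 963 CPM in control and 5316 ± 202 CPM in distal libraries, and these sums overlapped.

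**Figure D3:**
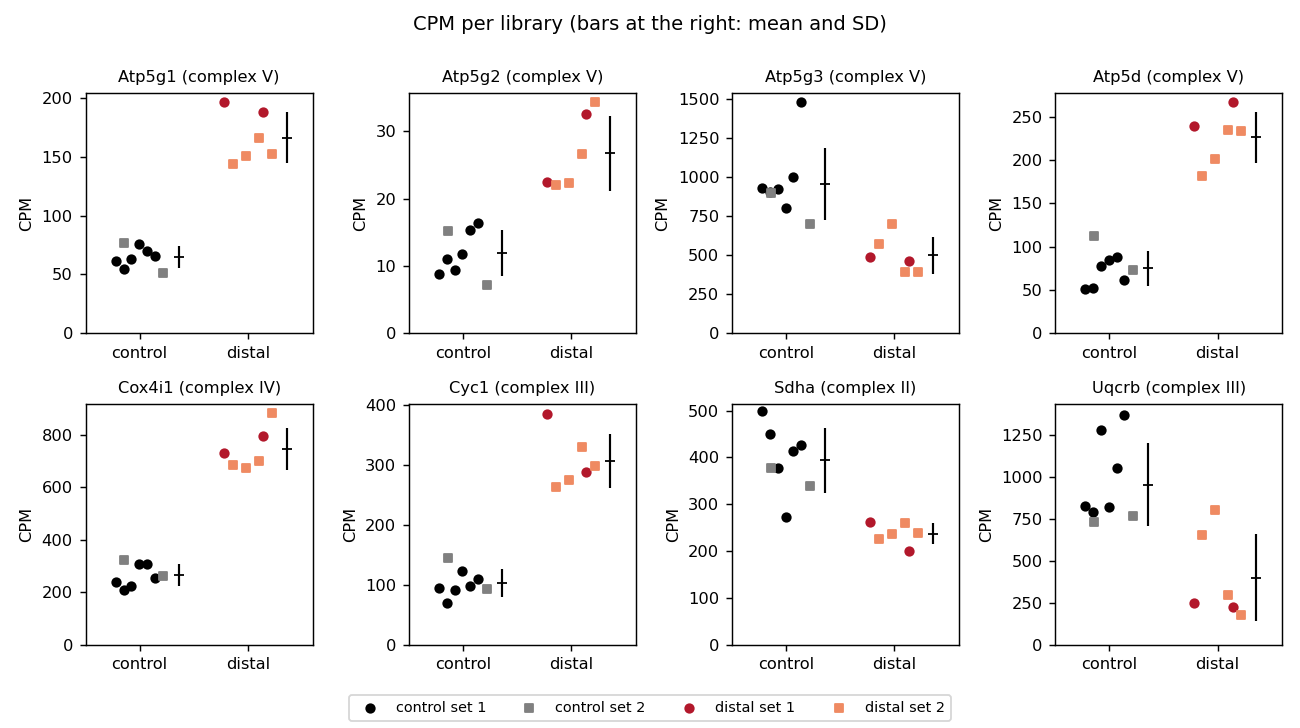
CPM (y axis, from 0) of 8 members in each of the 8 control and 6 distal libraries, with marker shape and shade for the set and a bar for the mean and SD of each region. Atp5g1, Atp5g2, Atp5d, Cox4i1 and Cyc1 are higher in all distal than in all control libraries, Sdha and Atp5g3 are lower in all, and Uqcrb overlaps through 1 distal library (803 CPM) within the control range.

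In complex III, 6 of 9 members rose and 1 fell. Cyc1, the cytochrome c1 that hands electrons to cytochrome c, read 70.2 to 145 CPM in control (median 96.3) and 263 to 386 CPM in distal libraries (median 293), a rise of 1.57 ± 0.16 (adjusted p = 1.8e-06). Uqcrc1, a core protein, read 164 to 253 CPM (median 204) and 401 to 597 CPM (median 546), a rise of 1.37 ± 0.14 (adjusted p = 1.8e-06). For both genes the regions did not overlap. The other core protein gene, Uqcrc2, did not pass: it read 152 to 346 CPM in control (median 192) and 108 to 199 CPM in distal libraries (median 167), at -0.42 ± 0.19 (adjusted p = 0.075). Cyc1 (0.44) and Uqcrc1 (0.51) were still called higher with the trend removed, and Uqcrc2 was at -0.01 (adjusted p = 0.98), or 0.27 (adjusted p = 0.44) with principal transcripts.

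Of the small subunits of complex III, Uqcr11 read 34.7 to 66.0 CPM in control (median 51.0) and 95.3 to 146 CPM in distal libraries (median 122), a rise of 1.28 ± 0.17 (adjusted p = 1.1e-05). Uqcrq, which binds ubiquinone, read 40.1 to 72.2 CPM (median 68.8) and 107 to 174 CPM (median 142), a rise of 1.17 ± 0.16 (adjusted p = 2.3e-05). Neither gene had overlapping groups, yet Uqcr11 was at 0.23 (adjusted p = 0.23) with the trend removed, and Uqcrq was called with the median over transcripts (0.71, adjusted p = 0.0015) and not with principal transcripts (0.19, adjusted p = 0.35). Uqcrh, the hinge protein, rose by 0.71 ± 0.18 (adjusted p = 0.0041) and remained called higher at 0.93 and 0.75. Uqcr10 rose by 0.48 ± 0.17 (adjusted p = 0.027), and was at -0.06 (adjusted p = 0.84) with the trend removed.

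Uqcrb, a ubiquinone-binding subunit, was the one member of complex III that fell, by 1.25 ± 0.31 (adjusted p = 0.0032). Of the 41 tested members with a principal transcript it had the highest level per length in control libraries, 1783 ± 465.6 CPM per kb of its principal transcript (SD, n = 8), and 747 ± 489 CPM per kb in distal libraries (n = 6). The control libraries spread from 733 to 1371 CPM (median 822). Distal replicates 1, 2, 5 and 6 read 247, 221, 298 and 176 CPM, and replicates 3 and 4 read 651 and 803 CPM. Of the 2 deep distal libraries with the lowest GC slopes, 1 thus lay within the control range and 1 below it, both above the other distal libraries. With libraries over 4000000 counts only, Uqcrb was at -0.41 (adjusted p = 0.31). Uqcrb was also the member with the lowest transcript GC content, 41.3%, and with the trend removed it was at -0.55 (adjusted p = 0.11). Uqcrfs1, the Rieske iron-sulfur protein, was at 0.08 ± 0.17 (adjusted p = 0.72).

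Cycs, cytochrome c itself, overlapped between the regions. It read 113 to 218 CPM in control libraries (median 143) and 104 to 181 CPM in distal libraries (median 129). The fold change was -0.20 ± 0.18 (adjusted p = 0.35), against 1.57 for its electron donor Cyc1. It was called higher with the trend removed, at 0.63 ± 0.18 (adjusted p = 0.018), and at 0.70 (adjusted p = 0.015) with principal transcripts. Cycs and Cyc1 had 42.3% and 61.4% GC in their transcripts, near the ends of the range of the members.

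In complex IV, 6 of 11 tested members rose and 2 fell. Cox4i1, a subunit through which ATP is known to slow the enzyme, read 207 to 322 CPM in control (median 259) and 675 to 883 CPM in distal libraries (median 717). The regions were far apart, with a fold change of 1.49 ± 0.13 (adjusted p = 1.6e-06). Cox6a1 read 127 to 175 CPM (median 143) and 267 to 421 CPM (median 360), a rise of 1.25 ± 0.13 (adjusted p = 2.2e-06). Cox8a, one of the smallest subunits, read 56.3 to 98.1 CPM (median 82.8) and 160 to 239 CPM (median 198), a rise of 1.33 ± 0.16 (adjusted p = 5.2e-06). None of these groups overlapped. Cox4i1 stayed called with the trend removed (0.70, and 0.48 with principal transcripts), whereas Cox6a1 was then at 0.11 (adjusted p = 0.53) and Cox8a at 0.31 (adjusted p = 0.11). All 3 were called higher in the deepest libraries, at 1.34, 0.94 and 1.16. Per length, Cox4i1 rose from 356 ± 57.3 to 1000 ± 108 CPM per kb, the highest level of these 41 members in distal libraries.

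Subunit VIIa has 3 genes: the muscle form Cox7a1, the widespread form Cox7a2 and Cox7a2l, whose protein binds complexes III and IV into a supercomplex. Cox7a2l read 25.4 to 46.2 CPM in control (median 37.9) and 51.2 to 94.1 CPM in distal libraries (median 66.1), with no overlap and a rise of 0.88 ± 0.18 (adjusted p = 0.00056). Cox7a2 read 148 to 228 CPM (median 163) and 179 to 245 CPM (median 206), at 0.23 ± 0.13 (adjusted p = 0.16). Cox7a2l gave 17.8% ± 3.21 of the counts of the 3 genes in control and 25.1% ± 4.25 in distal libraries, with ranges of 11.5% to 22.3% and 22.3% to 33.6% that met at their ends. Its rise was called with the trend removed (1.00, and 0.88 with principal transcripts), with counts summed per set (1.09, adjusted p = 0.0095) and with both together (1.04, adjusted p = 0.044). In the deepest libraries it was not called (0.57, adjusted p = 0.16). For Cox7a2 the call depended on the transcripts from which GC content and length were taken, with 0.98 (adjusted p = 0.00021) for the median over transcripts (43.6% GC) and -0.06 (adjusted p = 0.79) for the principal transcript.

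Of the remaining subunits of complex IV, Cox6b1, which faces the intermembrane space, read 84.7 to 191 CPM in control (median 129) and 158 to 277 CPM in distal libraries (median 200). These groups overlapped, and the rise of 0.68 ± 0.17 (adjusted p = 0.0032) was at 0.30 (adjusted p = 0.14) with the trend removed and at 0.55 (adjusted p = 0.0072) with principal transcripts. Cox7b read 263 to 561 CPM (median 407) and 133 to 300 CPM (median 169), a fall that overlapped slightly. Cox7b fell by 1.00 ± 0.23 (adjusted p = 0.0017), and was at -0.25 (adjusted p = 0.36) with the trend removed. Cox5b rose by 0.78 ± 0.17 (adjusted p = 0.00093) with no overlap, while Cox5a was at 0.09 ± 0.20 (adjusted p = 0.72) and Cox7c, with 53.0% of its transcript shared with other genes, at 0.04 ± 0.25 (adjusted p = 0.92). With the trend removed Cox5b was at -0.08 (adjusted p = 0.78), or at 0.92 (adjusted p = 0.00027) with principal transcripts. Cox6c fell by 0.53 ± 0.19 (adjusted p = 0.024), and missed the threshold without any one of control replicates 2 and 4 and distal replicates 1, 2, 4, 5 and 6 (-0.47 to -0.40, adjusted p 0.051 to 0.11). Removal of the trend brought it to -0.12 (adjusted p = 0.65), or to -0.31 (adjusted p = 0.18) with principal transcripts. Summed over its 19 genes, complex IV read 1771 ± 285 CPM in control and 2510 ± 182 CPM in distal libraries, with ranges of 1376 to 2096 and 2280 to 2761 CPM that did not overlap.

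The 8 members too low to test were all named for complex IV, and 1 of them, Cox6c2, is annotated as a processed pseudogene although its symbol does not say so. Cox6a2 and Cox8b, the heart and skeletal muscle forms, had no count in any library, which allows at most 0.0451 CPM over the 66508463 counts of the series, for counting error only. Cox7a1, also of muscle, had 9 counts in all, Cox8c 2, Cox6b2 26, Cox7b2 30, Cox4i2 (a form known from lung and low oxygen) 30 and Cox6c2 48. Cox4i1 gave 99.9% of the counts of subunit IV in both regions. The counted forms of these subunits were thus Cox4i1, Cox6a1, Cox6b1, Cox7a2, Cox7a2l, Cox7b and Cox8a.

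Complex II, which also works in the citric acid cycle, had 1 member that rose, 1 that fell and 2 that did not pass. Sdha, the flavoprotein that oxidises succinate, read 274 to 499 CPM in control (median 395) and 201 to 261 CPM in distal libraries (median 237). Sdhc, a membrane anchor, read 27.0 to 44.6 CPM (median 38.4) and 49.1 to 87.6 CPM (median 67.7). Both had regions without overlap, in opposite directions, with fold changes of -0.74 ± 0.14 (adjusted p = 0.00037) for Sdha and 0.90 ± 0.18 (adjusted p = 0.00053) for Sdhc. Sdhb, the iron-sulfur subunit that takes electrons from Sdha, read 57.7 to 154 CPM (median 117) and 100 to 142 CPM (median 129), at 0.18 ± 0.19 (adjusted p = 0.43). Sdhd, the partner anchor of Sdhc, read 132 to 275 CPM (median 183) and 107 to 248.6 CPM (median 148), at -0.27 ± 0.20 (adjusted p = 0.27). Sdha was called lower in both fits with the trend removed (-0.74 and -0.41) and was the sole member called lower in the deepest libraries (-0.79, adjusted p = 0.033). With counts summed per set it was not called (-0.54, adjusted p = 0.13). Sdhc was called in the fit with principal transcripts (1.21) and not with the median over transcripts (0.26, adjusted p = 0.26), and Sdhb was called lower in the first (-0.58, adjusted p = 0.042) and not in the second (-0.42, adjusted p = 0.13).

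**Figure D4:**
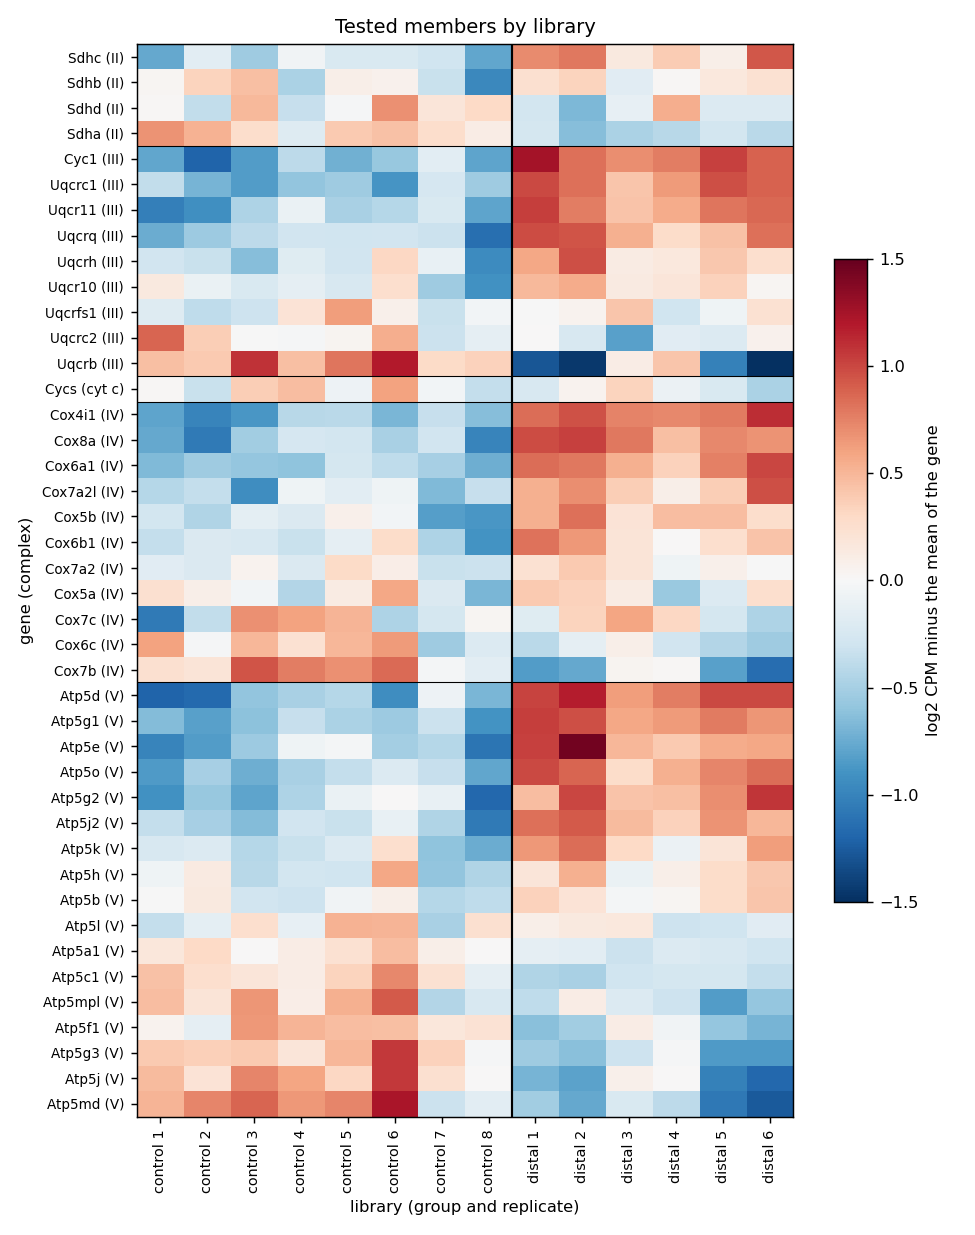
Log2 CPM of the 42 tested members (rows, by complex) minus the mean of each gene, in the 8 control and 6 distal libraries (columns). Colours end at -1.5 and 1.5. Members called higher and members called lower stand side by side within complexes II to V, and Uqcrb is close to its mean in distal replicates 3 and 4.

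The members called higher and lower differed in base composition. The 21 that rose had a transcript GC content of 47.9% to 61.4% (median 54.6%), the 11 that fell 41.3% to 50.9% (median 47.3%) and the 10 others 42.3% to 53.9% (median 47.7%). Across the 42 members, which share the same libraries and are not independent, fold change followed GC content with Pearson's r = 0.78 and Spearman's rho = 0.79, and across the 11705 tested genes with a GC value with r = 0.70 and rho = 0.73. The members lay within the cloud of all genes in this respect. With the counts as deposited and with either trend removal, 10 members were called higher (Atp5d, Atp5e, Atp5g1, Atp5j2, Atp5o, Cox4i1, Cox7a2l, Cyc1, Uqcrc1 and Uqcrh) and 5 lower (Atp5a1, Atp5c1, Atp5g3, Atp5md and Sdha). They include genes of each complex from II to V. Of the 11705 tested genes with a GC value, 757 were called higher and 515 lower in all of these fits. Atp5g1, Atp5o, Cox7a2l and Uqcrh were also called when the trend was removed from counts summed per set, where 5 members were called higher and none lower, against 1.06 percent and 1.61 percent of all genes (2.67 percent in all).

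**Figure D5:**
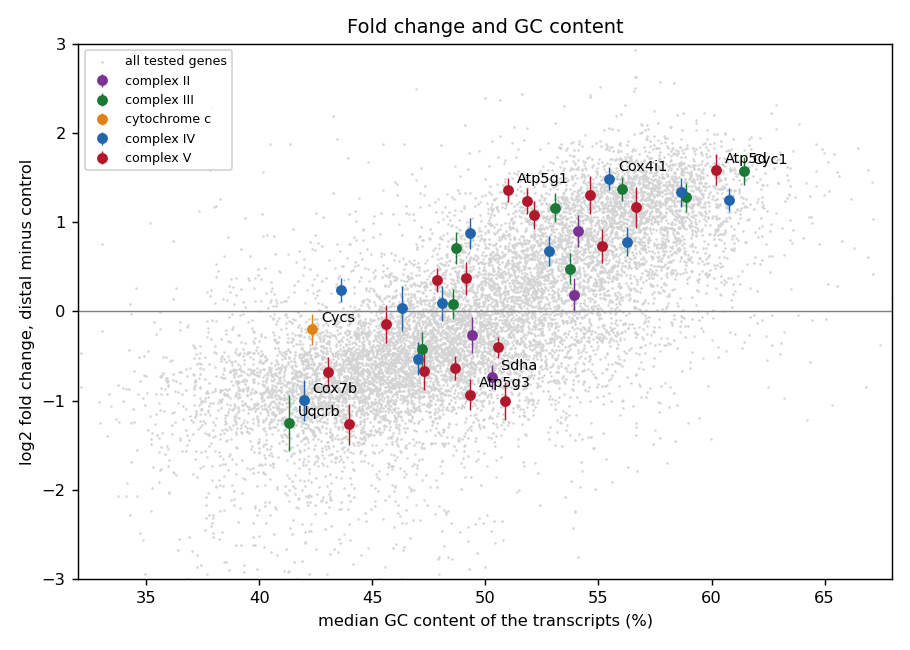
Log2 fold change (distal minus control, y axis, bars give the SE) against median transcript GC content (%, x axis) for the 42 tested members, coloured by complex, over all tested genes with a GC value in grey. Uqcrb (41.3% GC) and Cyc1 (61.4% GC) lie near the ends of the range, and Atp5g1 lies above and Atp5g3 below most genes of similar median GC content. The principal transcript of Atp5g1 has 56.4% GC, against the 51.0% plotted.

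Sets of the same region were compared as well. In a model with 4 sets, no member was called between the sets of either region by edgeR, and neither was any other gene. At an unadjusted p under 0.05, 8 of 42 members (19.0%) differed between the control sets, against 8.24% of all tested genes, and 3 (7.14%) between the distal sets, against 7.83%. Set 2 of the control region is 2 libraries, as is set 1 of the distal region, so these contrasts had few libraries.

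Genes that work with these complexes were read from lists in the same fit. Of 6 mitochondrially encoded subunits of complexes III to V, 5 fell and none rose, 83.3% called against the 48.3 percent of all genes. The fold changes included mt-Co3 at -2.18 ± 0.32 (adjusted p = 4.1e-05), mt-Co2 at -1.78, mt-Atp6 at -1.73 and mt-Cytb at -0.78. Their proteins assemble with the nuclear subunits above. With the trend removed, 2 of the 6 were called lower, mt-Co3 (-1.41) and mt-Atp6 (-0.86), and 3 with counts summed per set. The genes with the highest levels in control libraries were mt-Co1 (19839 ± 7057 CPM, at -0.91, adjusted p = 0.045) and mt-Cytb (13246 ± 3164 CPM). With the trend removed they were at -0.11 (adjusted p = 0.81) and 0.05 (adjusted p = 0.89). Control libraries averaged far less for mt-Co3 (178.5 CPM), mt-Co2 (85.7 CPM) and mt-Atp6 (43.6 CPM). Stretches shared with other genes were not measured for the mitochondrial genes, and how reads that match several genes were counted is not given. The levels and falls of mt-Co3, mt-Co2 and mt-Atp6 are therefore uncertain. Nuclear subunits of complex I, the entry point for NADH, were divided much like the members, with 20 of 36 higher and 10 lower (83.3% called, median 0.65). The smallest p-values were those of Ndufb7 (1.70), Ndufs8 (1.45), Ndufa13 (1.47) and Ndufa8 (1.22). With the trend removed 14 were higher and 4 lower, and Ndufa13 lost its call (0.37, adjusted p = 0.052).

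Of 33 assembly factors of complexes II to V, 11 rose and 5 fell (median 0.18), a share of 48.5% called that was near the 48.3 percent of all genes. The smallest p-values were those of Coa3 (1.02 ± 0.16), which helps make Cox1 protein, Uqcc2 (1.17 ± 0.20), of complex III, Surf1 (1.37 ± 0.25) and Cox10 (1.26 ± 0.24), which makes heme for complex IV. Removal of the trend left 5 higher and 2 lower, and Coa3 (0.08) and Uqcc2 (0.32) were no longer called. Of 13 citric acid cycle enzymes, 5 rose and 2 fell (median -0.11), 53.8% called, near the share of all genes. Both that fell belong to succinyl-CoA synthetase, the step that makes the substrate of complex II: Sucla2, from 378 ± 98.4 to 130 ± 33.2 CPM (-1.54 ± 0.19, adjusted p = 8.1e-06), and Suclg2 (-1.18 ± 0.18, adjusted p = 4.7e-05). These were also called lower with the trend removed, at -0.74 and -0.84. Suclg1, another gene of the same enzyme, did not pass. It read 97.8 ± 10.9 CPM in control and 90.7 ± 13.9 CPM in distal libraries (-0.11 ± 0.14, adjusted p = 0.52). With the trend removed Suclg1 was at 0.06 (adjusted p = 0.82), so the fall did not extend to all listed genes of this step. Idh3g (1.13, and 1.05 with the trend removed) and Mdh2 (0.88, and 0.07) rose.

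Of 10 tested regulators of mitochondrial biogenesis, 3 rose and 3 fell, 60% called against the 48.3 percent of all genes. None was called with the trend removed (0.10 median log2 fold change). Esrra, a nuclear receptor that binds many respiratory genes, rose by 1.71 ± 0.32 (adjusted p = 0.00036), Polrmt, the mitochondrial RNA polymerase, by 1.28 ± 0.22 and the coactivator Pprc1 by 0.65 ± 0.17, while Yy1 fell by 0.63 ± 0.18 (adjusted p = 0.009). In the fit without the trend they were at 0.60, 0.18, -0.17 and -0.08. Nrf1, whose motif letters are shown above, was at 0.26 ± 0.24 (adjusted p = 0.37). The 8 members with NRF1 letters included 5 that rose, none that fell and 3 that did not pass, and the 13 with ETS letters 7, 2 and 4. Of all 42 tested members 21 rose and 11 fell. Both groups are small, and a difference from the members as a whole was not tested. Of 12 genes of coenzyme Q synthesis, 5 rose and 2 fell, 58.3% called against the 48.3 percent of all genes, and 2 were higher and 1 lower with the trend removed. Those with the smallest p-values were Coq4 (8.13 ± 3.88 CPM in control, 23.1 ± 8.41 CPM in distal libraries), Coq6 (1.24), Coq5 (0.92) and Coq10b (-1.05). Coq4 (0.64, adjusted p = 0.17) and Coq6 (0.53, adjusted p = 0.25) lost their calls with the trend removed, and Coq5 (0.67) and Coq10b (-0.51) did not. Of 7 tested carriers and regulators of ATP synthase, none rose and 2 fell, 28.6% called, below the 48.3 percent of all genes. The channel gene Vdac3 was at -0.96 ± 0.19, but at -0.21 with the trend removed (adjusted p = 0.32). Atpif1, the inhibitor of the ATP synthase, fell by 0.47 ± 0.18 (adjusted p = 0.038), and by 0.89 with the trend removed. The phosphate carrier Slc25a3 (-0.36, adjusted p = 0.13) and the nucleotide carrier Slc25a4 (-0.38, adjusted p = 0.16) did not pass.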

How the data were processed

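For the 14 libraries the authors deposited raw counts, whole numbers by gene symbol with no normalisation. Reads were aligned with HISAT2 and counted with featureCounts, and the genome build was mm10/GRCm38, per the submitters' processing notes. Use of strand and treatment of reads that match several genes are not given in the sources used here. The members and gene lists were chosen with earlier results of these data known.

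The test was edgeR 4.0.16 under R 4.3.3 (low-count filter by filterByExpr, scaling by TMM, robust two-sided quasi-likelihood F test, Benjamini-Hochberg adjusted p under 0.05 over all tested genes). CPM use TMM-scaled totals, and CPM per kb the shortest APPRIS principal transcript of GENCODE. The SE of a log2 fold change is its absolute value divided by the square root of F. The GC and length trend of each library was modelled by natural splines of the median over a gene's transcripts (4 degrees of freedom for each term) and entered as offsets. Principal transcripts in place of that median were an alternative chosen after seeing the data. Other alternatives were DESeq2 1.42.0, upper-quartile scaling, other filters, sums per set, depth, a replicate block, and leaving out libraries or sets. The median log2 fold change of all genes was -0.16 with TMM, the level against which fold changes should be read.

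Values over libraries were given for at most 4 members per complex, those of smallest p, for Cycs and subunits with paralogs; Uqcrb, Uqcrc2 and Atp5b were added after their values were seen. From other lists the 4 smallest p were named. Nrf1 was added for its motif, and mt-Co1 and Suclg1 after their values were seen. Sequences came from GENCODE and RefSeq. All 23 pairs of libraries within a set differed beyond sampling noise, with chi-square of 6.83 to 40.0 for each degree of freedom. The code was tested on simulated counts. The limit given for genes without a count covers counting error only, while SE and SD reflect the spread among libraries. The counts carry no molecular identifiers.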

Additional observations from a re-analysis of the deposited data

Results flagged for a closer look

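In 3 of 84 pairs of a tested member and a region, 1 library stood apart from the others by Dixon's criterion at the 95% level, where chance alone marks about 1 in 20 groups. Atp5g3, the most counted gene of subunit c, read 1485 CPM in control replicate 6, against 999 CPM in the next library. Atp5k, subunit e of the ATP synthase, was also highest in control replicate 6, at 39.3 CPM against 28.7 CPM. Sdhd, an anchor of complex II, read 248.6 CPM in distal replicate 4, against 157 CPM in the next distal library.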

How the results depend on the processing

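The counts of 21 members higher and 11 lower stayed within 1.5 times under upper-quartile scaling, DESeq2 and both filters. Leaving out 1 library gave 20 to 23 higher and 8 to 12 lower (all genes 2685 to 3210 and 2099 to 3091). Of the 32 called members, 28 passed with the same sign in all 14 such fits, a share that was not worked out over all genes. Other settings moved counts, given as higher and lower members and then all genes: trend removed 6 lower (1216, 1006), with principal transcripts 7 lower (1163, 928), sums per set 1 lower (1376 lower), sums with the trend removed 5 and 0 (124, 189), total count as covariate 9 and 2 (612, 340), libraries over 4000000 counts 11 and 1 (821, 544), without control set 1 1 lower (1187, 1113), and without distal set 1 1674 lower genes. Sums per set and fewer libraries leave fewer degrees of freedom. With sums per set the median log2 fold change also moved, from 0.36 to 0.65 over the members and from -0.16 to 0.01 over all tested genes. The cause of the moved counts was not tested. Calls between sets stayed at 0.

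Deviations of 6 same-numbered pairs of libraries correlated at -0.0171 to 0.110. Whether the replicate numbers pair the libraries is not known, since noise among libraries can hide a pairing. With the replicate block 20 members were higher and 12 lower (all genes 2755, 2616), and with the block and the trend removed 13 and 7 (1034, 935).

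Fold changes that turned sign were these. With the trend removed: Atp5f1 0.02, Atp5l 0.41, Cox5b -0.08, Cycs 0.63, Sdhb -0.42 and Uqcr10 -0.06. With principal transcripts: Atp5l 0.17, Atp5mpl 0.12, Cox7a2 -0.06, Cycs 0.70, Sdhb -0.58, Uqcr10 -0.28 and Uqcrc2 0.27. With sums per set: Atp5l 0.13 and Cycs 0.07. With sums and the trend removed: Atp5f1 0.12, Atp5l 0.54, Atp5mpl 0.02, Cox6c 0.09, Cox7b 0.01, Cycs 0.89, Sdhb -0.23 and Uqcrc2 0.13. With the replicate block and the trend removed: Atp5k -0.10, Atp5l 0.40, Cox5b -0.23, Cycs 0.55, Sdhb -0.55 and Uqcr10 -0.19. With the total count as covariate: Atp5b -0.01, Atp5h -0.22, Cox5a -0.46, Cycs 0.04 and Sdhd 0.03. In libraries over 4000000 counts: Cox5a -0.20, Cycs 0.00, Sdhb -0.05 and Sdhd 0.07. Without control set 1: Atp5l 0.03, Atp5mpl 0.00, Cox6c 0.09, Cycs 0.10 and Uqcrc2 0.03. Atp5l was also at 0.03 with upper-quartile scaling, and at 0.19 without distal set 2. Leaving out 1 library, it ranged from -0.21 to 0.02 (above 0 without distal replicate 4 or 5), Cox7c from -0.09 to 0.22 (below 0 without control replicate 1, 6 or 7 or distal replicate 3) and Uqcrfs1 from -0.00 to 0.26 (below 0 without distal replicate 3). Cox7c was at -0.01 with no filter. Low counts allow no comparison of the 8 untested members.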
